A study of Drosophila melanogaster with 9 samples.

Results

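The microRNA and small interfering RNA (siRNA) machinery was described here by 9 genes of the 13947 in the deposited RNA-seq count table, found through the symbols of their FlyBase identifiers. These were drosha, pasha, Dcr-1, AGO1 and gw of the microRNA branch, Dcr-2, r2d2 and AGO2 of the siRNA branch, and loqs, which serves both. They were chosen by their place in the pathways with their RNA counts in these same libraries already known, above all the count of Dcr-2, so their levels are a description and carry no test. The study profiled photoreceptor nuclei in which the H3K36 methyltransferase Set2 was depleted by RNAi. RNA counts were analysed for 1 group, shSet2, with 3 libraries labelled as replicates. RNA-seq libraries of shControl (mCherry RNAi) photoreceptors and the ATAC-seq libraries were not analysed here, so no value below compares Set2 depletion with a control.

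The shSet2 flies carried rh1-GAL4 and UAS-GFP-Msp300KASH on chromosome 3 in a w background with ry[506], together with a UAS construct against Set2. The labels call this construct siSet2, and the study's methods describe an shRNA from a single line of the TRiP collection, TRiP.HMJ02076, inserted at attP40. The flies were males aged 10 days and collected at zeitgeber time 6, that is 6 h after lights on. Nuclei carrying GFP on their outer membrane were immuno-enriched from heads, and libraries were made from 10 ng of nuclear RNA. Rh1-Gal4 is active in outer photoreceptors from late pupal development onward, so the RNA is that of nuclei of these cells and of any nuclei that came through with them. The source of the sample is labelled as retina. Nothing in the labels states whether the replicates came from separate crosses, and the spread between them may be partly technical. In such bulk samples, fewer cells of a type and less RNA per cell cannot be told apart.

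Small RNAs guide Argonaute proteins to matching transcripts, and flies run 2 branches with largely separate enzymes. In the microRNA branch, Drosha and its dsRNA-binding partner Pasha cut hairpins out of primary transcripts in the nucleus. Dcr-1 with Loqs then cuts the hairpin in the cytoplasm, AGO1 takes up the product, and Gw (GW182) brings in the enzymes that silence the target. In the siRNA branch, Dcr-2 cuts long dsRNA, R2D2 helps to load the duplex, and AGO2 cleaves the target. This branch is the main RNAi and antiviral pathway of somatic fly cells. Short hairpins expressed for RNAi also draw on small RNA enzymes, and which of them processed the Set2 hairpin was not examined here.

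The libraries held 3657491, 3794547 and 4960498 counts in replicates 1, 2 and 3. Expressed genes were those that reached 10 counts in each of the 3 libraries, which 5802 genes, 41.6% of those in the table, did. All 9 members passed, 6 of them with at least 100 counts in every library, and since they were chosen with their counts known nothing is read from this. Levels are given as CPM, counts per 1000000 counts of the library after TMM scaling in edgeR. The detection floor was set at 3 counts, equal to 0.605 to 0.820 CPM depending on the library. Set2, the target of the RNAi, had 313, 370 and 369 counts, and its level was 85.8 ± 11.6 CPM (SD, n = 3). The 7 marker genes of outer photoreceptors, among them ninaE (Rh1 rhodopsin) and the TRP channel gene trp, summed to between 56642 and 59137 CPM. The 8 marker lists for other cells summed to at most 6048 CPM, reached by the pigment and cone cell list, in which w, also a transgene marker, was the highest gene. All 8 lists had their highest sum in replicate 1. In several lists a single gene gave most of the sum, such as w, brp and apolpp. Single genes did not all follow their list, since nrv2 (glia), Lsp2 (fat body), Hml (hemocytes) and nSyb (other neurons) were highest in replicate 3. Nothing on the share of other cells is read from these sums.

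Dcr-2 was the gene with the most counts in each library. Replicate 1 held 124918 of its counts, replicate 2 held 131544 and replicate 3 held 156424. These were 3.42% of all counts in replicate 1 (95% Wilson interval 3.40% to 3.43%), 3.47% in replicate 2 (3.45% to 3.49%) and 3.15% in replicate 3 (3.14% to 3.17%), where the intervals cover counting error only. The level of Dcr-2 was 33448 ± 1588 CPM (SD, n = 3). Replicate 3 was the lowest of the 3 libraries and replicate 2 the highest, by 1.10-fold, and this order held under each of 4 scalings. The interval of replicate 3 did not reach those of the other libraries, so this difference was larger than counting error.

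**Figure D1:**
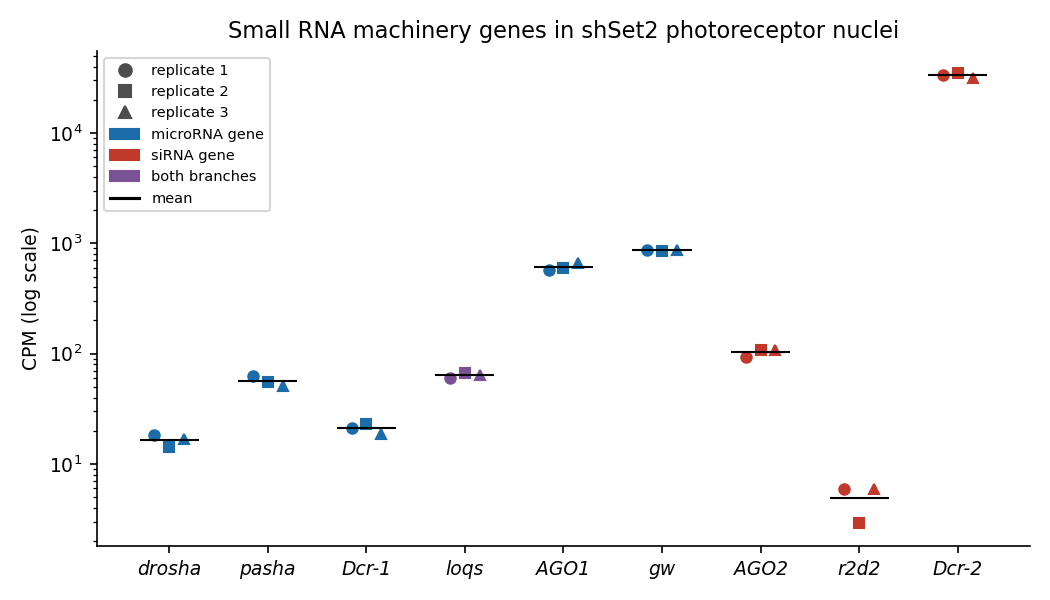
Level of each member in CPM, on a log axis, for replicates 1 (circles), 2 (squares) and 3 (triangles) of shSet2 photoreceptors, with the mean as a bar. Dcr-2 lies at 31699 CPM or above in each library, and the other 8 members lie between 2.91 CPM (r2d2 in replicate 2) and 873 CPM (gw in replicate 3).

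No other member approached this level. The next was gw, and Dcr-2 was 38.6-fold above it in CPM. Together the 9 members took 3.52% ± 0.16 (SD, n = 3) of the counts of a library, and the 8 members other than Dcr-2 took 0.174% ± 0.0047, which is 4.96% of the members' counts. Dcr-2 was also 1.75-fold above the gene with the second most counts in the whole table, the voltage-gated potassium channel gene Sh (Shaker).

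By the largest log2 difference of CPM over the 3 libraries, the genes closest in level to Dcr-2 were Sh (0.95), norpA (0.99) and rdgA (1.13). The phospholipase C of phototransduction is encoded by norpA, and rdgA encodes the diacylglycerol kinase of the same cascade. Dcr-2 was higher than each of them in 3 of 3 libraries. All of these genes span far more of the genome than Dcr-2, at 139 kb for Sh, 42.8 kb for norpA and 122 kb for rdgA against 6.55 kb for Dcr-2.

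Length matters for such a comparison, since a longer gene yields more fragments and nuclear RNA also contains introns. By the study's account, however, most reads from its approach come from spliced transcripts. Dividing by a span that includes introns can thus place genes with long introns too low. Across the 5751 expressed genes with an annotated span, Spearman's rho between span and mean CPM was 0.55, a description across genes that share the same libraries. Levels of different genes were therefore compared as CPM per kb of annotated gene span, introns included. On this scale Dcr-2 remained at rank 1 of these genes, at 5109 ± 243 CPM per kb (SD, n = 3). Its libraries lay at 5170, 5315 and 4842 CPM per kb in order of replicate number. The gene sunz followed at 4611 ± 580 and ninaE at 4268 ± 550 CPM per kb. The ranges of Dcr-2 and of both these genes overlapped, so the first rank per kb was not separated from them by the spread between libraries. Among the 820 expressed genes with a span within 25% of that of Dcr-2, none was higher in CPM, and the next of them, trp, was 3.57-fold lower.

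**Figure D2:**
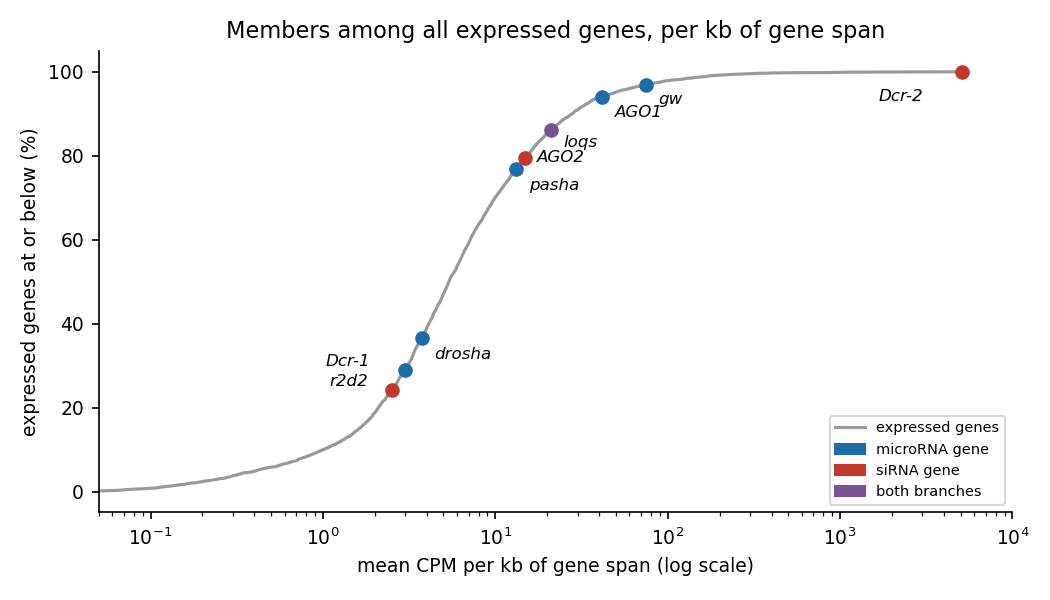
Cumulative share of expressed genes (grey line, in %) against the mean level over 3 libraries in CPM per kb of gene span, on a log axis, with the 9 members as coloured points. Dcr-2 sits at the top end at 5109 CPM per kb, 5 members lie between 13.2 and 74.8 CPM per kb, and drosha, Dcr-1 and r2d2 lie at 2.52 to 3.74 CPM per kb, below the median of 5.38.

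The annotated span of Dcr-2 (FBgn0034246) is chromosome arm 2R, 17574979 to 17581525, in the Release 6 plus ISO1 MT annotation. Its span shares 1 bp with that of Rab4, which encodes a vesicle trafficking GTPase and had 94, 88 and 207 counts. The nearest genes beyond them were almost silent, with 1, 0 and 3 counts for CG42239 and 1, 0 and 0 counts for CG6484. Among these 4 genes, Dcr-2 had by far the most counts, and the counts of Rab4 summed to 0.0942% of those of Dcr-2. Rab4 was still above the median of expressed genes, at 30.2 CPM against 18.6 CPM. The genotype as listed in the labels and in the study's methods names no construct that carries Dcr-2. Counts per gene would not separate such a copy from the gene's own locus, and the source of this level was not tested.

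The partner of Dcr-2 stood at the other end. The gene r2d2 (FBgn0031951, 2L 7800147 to 7802098) encodes the dsRNA-binding protein that acts with Dcr-2 in loading AGO2. Its counts, 22, 11 and 29 for replicates 1, 2 and 3, were the fewest of the 9 members. On unscaled totals, the 95% Wilson interval ran from 3.97 to 9.11 CPM for replicate 1, from 1.62 to 5.19 for replicate 2 and from 4.07 to 8.40 for replicate 3. Replicate 2 was the lowest by 2.05-fold, but these intervals overlap. The level of r2d2 was 4.92 ± 1.74 CPM (SD, n = 3).

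With 22.1% of its span inside that of Cdc14, which had 712, 707 and 1019 counts, r2d2 is also the member most exposed to a neighbour. Whether reads were counted by strand is not given in the sources used here, so its few counts are uncertain. Of the 8 marker lists for other cells, 5 had their lowest sum in replicate 2, as r2d2 had, among them glia at 158 to 187 CPM and inner photoreceptors at 36.5 to 51.2 CPM over the 3 libraries. Their part in the level of r2d2 was not tested.

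AGO2 (FBgn0087035, 3L 15554113 to 15561042), the slicing Argonaute of the siRNA branch, was well above r2d2. Its 343, 405 and 532 counts gave a mean of 103 ± 8.40 CPM (SD, n = 3). Replicate 1 was lowest at 92.9 CPM, and replicates 2 and 3 were close together at 107 and 108 CPM. AGO2 stood above 79.8% of expressed genes in CPM and above 79.4% per kb.

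The gene loqs (FBgn0032515, 2L 13382652 to 13385671) encodes isoforms that partner with Dcr-1 and, for 1 of them, with Dcr-2. It had 224, 250 and 318 counts, a level of 63.8 ± 2.79 CPM (SD, n = 3). Its libraries lay between 60.7 and 66.1 CPM, so no library stood apart. Per kb of span it reached 21.1 ± 0.922 CPM, above 86.1% of expressed genes and above AGO2 in each library. An annotated antisense RNA overlaps 19.3% of its span, so its counts too are uncertain without strand. The overlaps of pasha with kek6 (82 bp), of AGO2 with CG7739 (317 bp) and of AGO1 with mRpL53 and CG33155 (1470 bp) carry the same limit, and kek6 had 3.09 times the counts of pasha.

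In the microRNA branch, the genes that act last had the highest levels. The silencing factor gw (FBgn0051992, chromosome 4, 649041 to 660608) had 3193, 3248 and 4307 counts. At 865, 859 and 873 CPM in replicates 1, 2 and 3, its level of 866 ± 6.80 CPM (SD, n = 3) hardly varied. AGO1 (FBgn0262739, 2R 13943387 to 13958089), which carries the microRNA, had 2119, 2252 and 3307 counts. Its level was 613 ± 50.4 CPM, with 574 and 596 CPM in replicates 1 and 2 and 670 in replicate 3. Both genes were in the top 5% of expressed genes in CPM, at percentile 96.6 for gw and 95.2 for AGO1. Per kb they were at 74.8 ± 0.588 and 41.7 ± 3.43 CPM, and the ranges of the libraries did not overlap.

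The genes that cut the precursors were much lower. Pasha, the RNA-binding subunit of the nuclear complex, is encoded by pasha (FBgn0039861, 3R 31617977 to 31622217), which had 231, 209 and 250 counts and 56.2 ± 6.01 CPM (SD, n = 3). Replicate 1 was highest at 62.6 CPM, and replicates 2 and 3 had 55.3 and 50.7. Its nuclease partner drosha (FBgn0026722, 2R 7932429 to 7936840) had 68, 54 and 83 counts, which gave 18.4, 14.3 and 16.8 CPM. Dcr-1 (FBgn0039016, 3R 22734007 to 22741091), the cytoplasmic nuclease, had 78, 88 and 93 counts, which gave 21.1, 23.3 and 18.8 CPM. The means were 16.5 ± 2.09 CPM for drosha and 21.1 ± 2.22 CPM for Dcr-1. These values straddle the median of all expressed genes, 18.6 CPM. Per kb, with 3.74 and 2.98 CPM, both were below the median of 5.38 CPM per kb. Both pasha and drosha were highest in replicate 1, where the summed CPM of each of the 8 marker lists of other cells was also highest. Single genes of these lists differed, and the part of these cells was not tested.

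Ordered by CPM per kb, the members ran Dcr-2, gw, AGO1, loqs, AGO2, pasha, drosha, Dcr-1 and r2d2. The libraries of neighbours in this order did not overlap from Dcr-2 down to AGO2, nor between pasha and drosha. They overlapped for AGO2 and pasha, for drosha and Dcr-1, and for Dcr-1 and r2d2, so the order within each of these sets was not resolved. In CPM without length scaling, AGO2 was above loqs in each library, so the order of this pair rests on dividing by span. Without Dcr-2, the highest and the lowest member differed 29.7-fold per kb. The median of the 9 members was 14.8 CPM per kb, against 5.38 over all expressed genes, and 6 of 9 were above it. Compared only with expressed genes of a span within 25% of its own, gw stood at percentile 95.3, loqs at 91.5, AGO1 at 90.0, pasha at 77.0 and AGO2 at 70.2. By the same measure drosha stood at percentile 32.7, Dcr-1 at 26.8 and r2d2 at 21.2.

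The proteins act in known partnerships, and the ratio between partner genes within a library does not depend on how the library was scaled. In the microRNA branch, each nuclease gene was below the gene of its dsRNA-binding partner. The level of drosha per kb was 0.283, 0.248 and 0.319 times that of pasha in replicates 1, 2 and 3, a log2 ratio of -1.83 ± 0.18 (SD, n = 3). For Dcr-1 to loqs the log2 ratio was -2.75, -2.74 and -3.00, with a mean of -2.83 ± 0.15, and -1.60 without length scaling. In both cases the ratio was below 1 in 3 of 3 libraries.

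In the siRNA branch the order was the opposite. Dcr-2 was 1693-fold above r2d2 in replicate 1, 3565-fold in replicate 2 and 1608-fold in replicate 3, per kb of span. The log2 ratio was 11.06 ± 0.64 (SD, n = 3), and without replicate 2, where r2d2 had 11 counts, it was 10.69. Without length scaling, where the shorter span of r2d2 is not allowed for, it was 12.80. Against loqs, Dcr-2 was 257-, 243- and 227-fold higher per kb, a log2 ratio of 7.92 ± 0.09, and the log2 ratio was 9.03 without length scaling. Against AGO2 it was 385-, 344- and 311-fold higher, and the log2 ratio was 8.43 ± 0.15. The ratio to Dcr-1, the Dicer of the other branch, was 1733, 1618 and 1820, a log2 ratio of 10.75 ± 0.09.

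**Figure D3:**
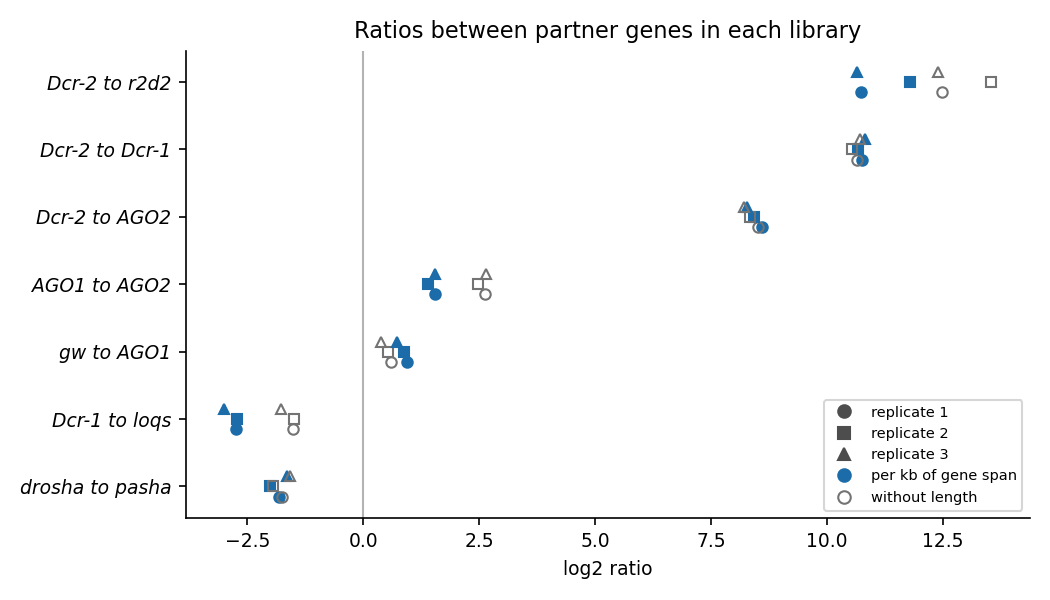
Log2 ratios between partner genes in replicates 1 (circles), 2 (squares) and 3 (triangles), per kb of gene span (filled) and without length scaling (open), with a line at 0. The ratios of drosha to pasha and of Dcr-1 to loqs lie below 0 in each library, and the ratios of Dcr-2 to AGO2, Dcr-1 and r2d2 lie above 8 in each library.

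Outside Dcr-2, AGO1 and gw of the microRNA branch were above AGO2, while the means of pasha, drosha and Dcr-1 were below it, both in CPM and per kb, with the libraries of pasha and AGO2 overlapping per kb. AGO1 was 2.91-, 2.62- and 2.93-fold above AGO2 per kb in replicates 1, 2 and 3, a log2 ratio of 1.49 ± 0.09 (SD, n = 3). Without length scaling, which counts the longer span of AGO1 in full, the log2 ratio was 2.58. The gene gw was 1.92-, 1.83- and 1.66-fold above AGO1 per kb, a log2 ratio of 0.85 ± 0.11. In summed CPM, the 5 microRNA genes, mostly through gw and AGO1, reached 1573 ± 49.0 CPM, and the 2 genes r2d2 and AGO2 reached 108 ± 7.71 CPM. With Dcr-2 the 3 siRNA genes reached 33556 ± 1585 CPM.

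The spread between replicates was below the median of expressed genes for most members. The median SD of log2(CPM + 1) was 0.12 over the 9 members, against 0.18 over the 5802 expressed genes, and 8 members were below that value. The exception was r2d2, at 0.48. In CPM, 7 of the 9 members were above the median of expressed genes, and spread was not compared at like levels. The coefficient of variation was 35.3% for r2d2, where its mean count alone gives 22.0%. It was 0.786% for gw, 4.37% for loqs and 10.5% for Dcr-1, each at or below the 1.67%, 6.15% and 10.8% that counting gives. For drosha it was 12.6%, near its counting value of 12.1%. More than 1.5 times the counting value was seen for 5 members, which were pasha, AGO1, Dcr-2, r2d2 and AGO2. A coefficient from 3 libraries is itself imprecise. Close to this line were pasha (10.7% against 6.59%), AGO2 (8.19% against 4.84%) and r2d2. For Dcr-2 the coefficient was 4.75% against a counting value of 0.270%, and for AGO1 it was 8.21% against 1.98%. No library was the extreme for most members. Each of the 3 libraries was highest for 3 members and lowest for 3. For 7 of the 9 members the highest and lowest library were the same under 4 scalings, gw and r2d2 being the exceptions. The scalings differed little between libraries, so this does not separate the order from counting error. AGO1 and AGO2 were both highest in replicate 3 and lowest in replicate 1, and Dcr-1 and Dcr-2 were both highest in replicate 2 and lowest in replicate 3. These matches are a description of 3 libraries.

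**Figure D4:**
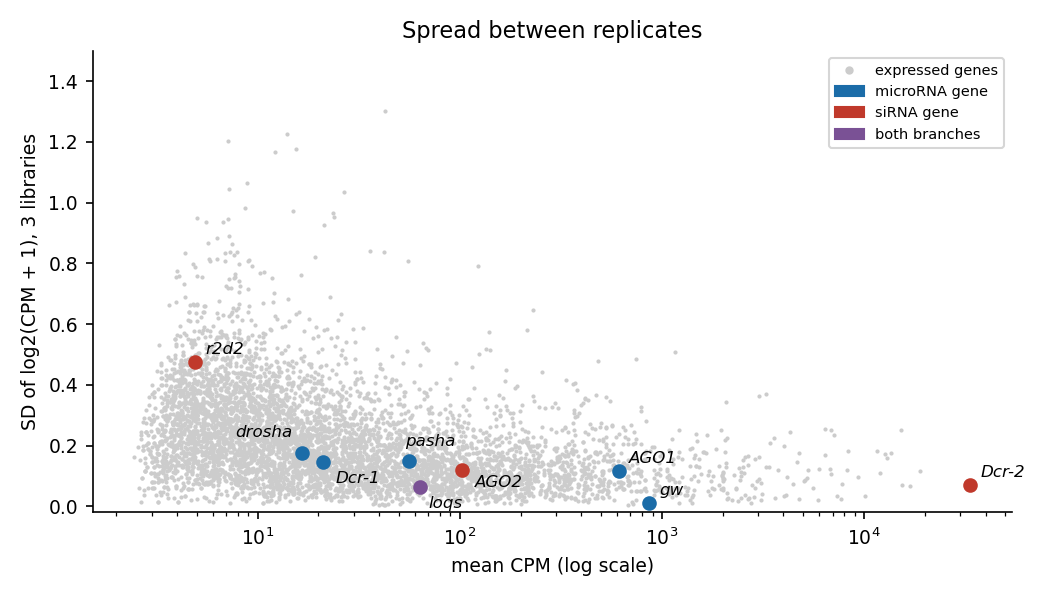
SD of log2(CPM + 1) over the 3 libraries against mean CPM, on a log axis, for the expressed genes (grey; 5 genes above the axis are not drawn) and the 9 members (coloured). Dcr-2 and gw have SDs of 0.07 and 0.01, and r2d2 has 0.48.

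Other genes of the small RNA pathways were read from lists, which were written with earlier results of these data known. Of all genes in the table, 41.6% had at least 10 counts in every library. Nothing is read from how many genes of a list did so. Of 7 genes for nuclear microRNA processing and export, 6 had at least 10 counts in every library. The highest was Ars2, a partner of the nuclear cap-binding complex, at 172 ± 3.65 CPM (SD, n = 3), and the lowest was Cbp20, a subunit of that complex, with 3, 11 and 16 counts. The median of this list per kb was 3.32 CPM. All 12 genes for silencing by the microRNA complex passed, which include the deadenylase and decapping factors that Gw and its partners bring in. Their median was 14.2 CPM per kb. The list ran from DCP1, a decapping cofactor, at 4.48 ± 0.916 CPM to gw. All 5 chaperone genes for loading of Argonautes passed, from Stip1 at 16.5 ± 2.59 CPM to Hsc70-4 at 351 ± 22.2 CPM.

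Of the 8 genes of the siRNA list, 4 passed, against 41.6% of all genes in the table. These 4 were the members Dcr-2, r2d2, loqs and AGO2, chosen with their counts known, so nothing is read from the count. Hen1, the methyltransferase that protects the 3′ ends of siRNAs, had 4, 5 and 1 counts. The C3PO subunit genes trsn and Trax, which help to remove the passenger strand, had 2 to 19 and 5 to 14 counts. Vago, an antiviral gene that responds to Dcr-2 in infected flies, had 2 counts in each library, under the floor. Of 3 genes that trim or tail small RNAs, Tailor reached 18.7 ± 3.40 CPM and Nbr 10.7 ± 2.70 CPM, and Hen1 did not pass.

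Genes of the germline branch are known mainly from ovary and testis. Of 13 genes that make or use Piwi-interacting RNAs, 1 passed, against 41.6% of all genes in the table. It was the helicase gene armi with 19, 13 and 17 counts (4.01 ± 0.985 CPM). The Argonaute gene aub had no count in any library, which allows at most the floor of 3 counts in each. AGO3 had 1, 0 and 0 counts, and piwi had 7, 2 and 9. Of the 5 Argonaute genes of the fly, only AGO1 and AGO2 were thus at or above 10 counts in every library.

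**Figure D5:**
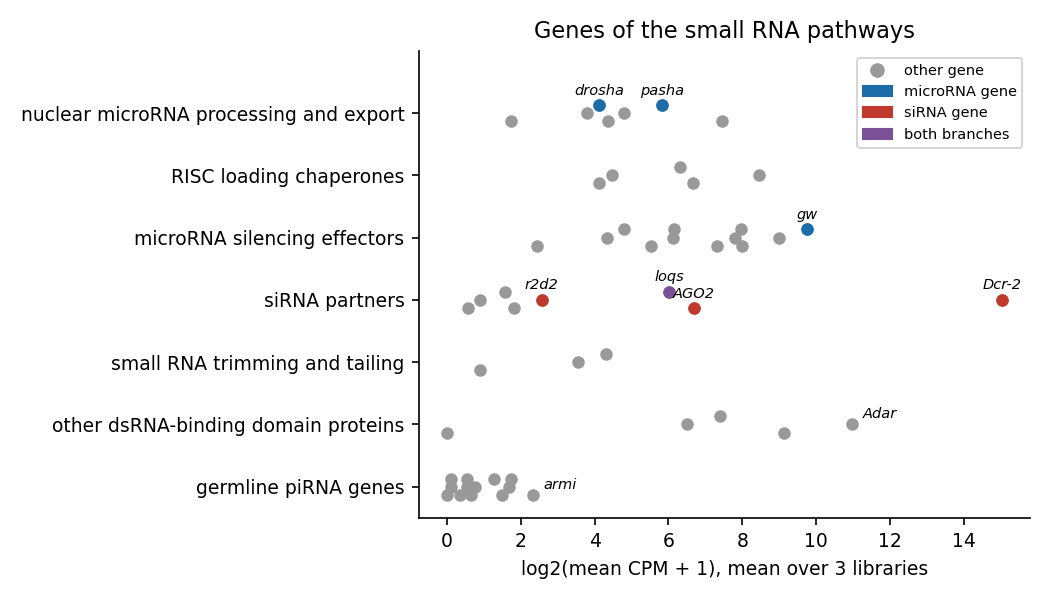
Genes of the small RNA pathways by list, as log2(mean CPM + 1) over 3 libraries, with members named and coloured and other genes in grey. Dcr-2 stands alone at the right, the silencing effectors reach up to gw, and the 13 germline piRNA genes lie at the left, with armi the highest at 4.01 CPM.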

How the data were processed

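NIE-coupled RNA-seq of shSet2 photoreceptors gave 3 libraries. The authors deposited whole-number counts per gene, without normalization, for 13947 genes. The submitters' processing notes name STAR, Trimmomatic and SAMtools and the builds dm6 and BDGP6, with no role given. The counting tool, its features and its strandedness are not given in the sources used here. The table also held 1 blank row, left out, and 0 columns of other samples.

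TMM factors (1.009, 0.996 and 0.995) were computed with edgeR 4.0.16 in R 4.3.3 on the genes with at least 10 counts in every library, with totals over all genes. DESeq2 1.42.0 size factors were an alternative. Other steps used numpy 2.4.6, pandas 2.3.3, scipy 1.17.1 and matplotlib 3.10.9 in Python 3.11.15. Steps were tested on simulated data. Symbols matched 13884 identifiers, and spans and neighbours came from the Release 6 plus ISO1 MT gene table. Coding length, planned as the scale between genes, was not used here and gene span took its place. Names Hop, HPat and nbr of the lists were matched as Stip1, Patr-1 and Nbr. No row of the table was a microRNA gene (0 of 13947), so that list was left out.

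The text names the 9 members, Set2, markers, the genes with the most and the fewest counts in each list, the 3 genes nearest to Dcr-2 and the neighbours of members. Genes outside this rule, such as sunz, Nbr, trsn, Trax, DIP1, mle, stau and the transgene markers ry, v and y, were chosen after their values were seen. Members and lists were chosen with earlier results of these data known. The 95% Wilson intervals, like the detection floor at 3 counts, reflect counting error alone. No groups were compared and no test was run. Alternatives were other scalings, minimums, a pseudocount of 0.1 in place of 1, no length scaling, and each replicate left out.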

Additional observations from a re-analysis of the deposited data

How the results depend on the processing

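No paired analysis was possible because counts were analysed for 1 group. Without length scaling, the log2 ratio was 12.80 for Dcr-2 to r2d2, -1.60 for Dcr-1 to loqs, 2.58 for AGO1 to AGO2, 10.64 for Dcr-2 to Dcr-1 and 0.50 for gw to AGO1. None of the ratios changed sign. The order of loqs and AGO2, a pair not among them, did reverse, with AGO2 above loqs in CPM and below it per kb. The median SD over the 9 members was 0.13 with DESeq2's size factors and 0.11 on unscaled totals, and 0.088 to 0.095 with a replicate left out. With at least 1 count in any library, 10935 genes counted as expressed. Of 54 alternatives for the CPM of single members, 1 moved it by more than 1 SD, gw at 896 CPM on totals without Dcr-2. Leaving out 1 of 3 replicates cannot move a mean by more than 1 SD, so those alternatives could not have counted. The scalings also differed little between libraries, so nothing is read from this count. The scale of coding length was not run. With replicates left out, the ratio of Dcr-2 to r2d2 was 10.69 to 11.26, and depth limits it through the 11 counts of r2d2 in replicate 2.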

Other observations

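Of 5 further genes with dsRNA-binding domains, 4 had at least 10 counts in every library, against 41.6% of all genes in the table. Adar, which edits adenosines in dsRNA, was the highest at 2010 ± 87.2 CPM (SD, n = 3), above each member but Dcr-2. DIP1 was at 554 ± 59.3 CPM, the dosage compensation helicase gene mle at 166 ± 12.9 CPM and the RNA localization gene stau at 89.9 ± 3.77 CPM. The gene blanks, known from testis, had no count in any library, which allows at most the floor of 3 counts in each.

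Between them, the inserted constructs carry w, ry, v and y as markers, per the study's methods. The counts of w were 21274, 19637 and 24162, which gave 5285 ± 441 CPM (SD, n = 3) and rank 27 of all genes in the table by summed counts. The gene ry had 45, 17 and 23 counts, v had 6, 6 and 10, and y had 5, 0 and 0. Counts per gene do not separate a construct's copy from the gene's own locus.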
